A study of Mus musculus with 59 samples.

Results

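The genes described here are 45 components of the DNA replication machinery in cloned mouse embryos. Cloning was by somatic cell nuclear transfer (SCNT), which gives an enucleated oocyte the nucleus of a body cell. The genes were taken by symbol from a list of replication factors, and 45 of 45 were found among the 24421 genes of the expression table. RNA came from late 2-cell SCNT embryos exposed to TSA (trichostatin A, which blocks histone deacetylases) and collected 33 to 34 h after activation. It also came from untreated SCNT embryos collected at the 1-cell (13 to 14 h), early 2-cell (20 to 21 h) and late 2-cell (33 to 34 h) stages. All 4 groups were labelled as strain BDF1, cumulus cells were labelled as the nuclear donor, and the labels' protocol gives C57BL/6n females of 5 to 7 weeks as the source of oocytes. The sources used here do not give the dose and duration of TSA or the number of embryos per library. The labels list 5 RNA libraries in each group, but each gene has 1 value for each group in the table, so the differences below have no error, no replicate check and no p-value. The 1-cell column is named only by its time, 13 h, and its match to the 1-cell libraries is inferred from the collection times.

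A eukaryotic replication origin is first bound by the origin recognition complex, and Cdc6 and Cdt1 then load the MCM2-7 ring onto DNA, a step called licensing that geminin (Gmnn) blocks by binding Cdt1. Cdc45 and GINS join the ring to form the active helicase. DNA polymerase alpha and primase make the primers, polymerases epsilon and delta extend them on the leading and lagging strands with the Pcna clamp, which RFC loads, RPA covers the exposed single strands, and Fen1 and Lig1 join the lagging-strand fragments. Ribonucleotide reductase, thymidine kinase and thymidylate synthase supply the nucleotides. Before its own genome is active, a cleaving mouse embryo replicates with protein and mRNA stored in the oocyte.

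At least 1 FPKM (fragments scaled to transcript length and to the mapped total) was listed for 45 of the 45 genes in TSA-treated and in untreated late 2-cell embryos, and for 44 in early 2-cell and 44 in 1-cell embryos. The exception at both early stages was Pold1, the catalytic subunit of polymerase delta. Orc6 had the highest value of the list in every column, ranking between 44 and 101 among all genes. FPKM are relative to each column's total, and the 100 most abundant genes held 38.1% of the summed FPKM in 1-cell, 44.2% in early 2-cell and 25.03% in late 2-cell embryos. Differences are given on the log2(FPKM + 1) scale, and a gene was counted as higher or lower when its difference reached 1, which is 2-fold on that scale. Oocyte and embryo markers were at or above 1 FPKM for 8 of 8 genes in each of the 4 columns, with summed values of 1053 FPKM in TSA-treated late 2-cell embryos, and of 3795, 2898 and 1591 FPKM in untreated 1-cell, early 2-cell and late 2-cell embryos. The 8 markers of 2-cell embryos summed to 289 FPKM with TSA and to 176, 270 and 238 FPKM at the untreated stages. Most of the early 2-cell sum was Tcstv1, at 203 FPKM there and 36.8 FPKM at the untreated late 2-cell stage. Between these stages 6 of the 8 were higher and 1 lower, Tcstv1, against 47.1% and 10.8% of all genes kept. Of the oocyte and embryo markers 1 was higher, Zp3, and 4 were lower. The 12 markers of cumulus and granulosa cells summed to 7.47 FPKM with TSA and 17.4 FPKM without at the late 2-cell stage, with 3 and 2 of them at 0 (Fshr among those at 0 with TSA), and to 15.5 and 14.4 FPKM at the 1-cell and early 2-cell stages. Most of the gap between the late 2-cell sums was Lgals1, at 1.28 FPKM with TSA and 9.06 FPKM without. For the 3 marker lists, the part in the results was not tested. These were bulk libraries, so fewer cells with a transcript and less of it per cell cannot be told apart.

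**Figure D1:**
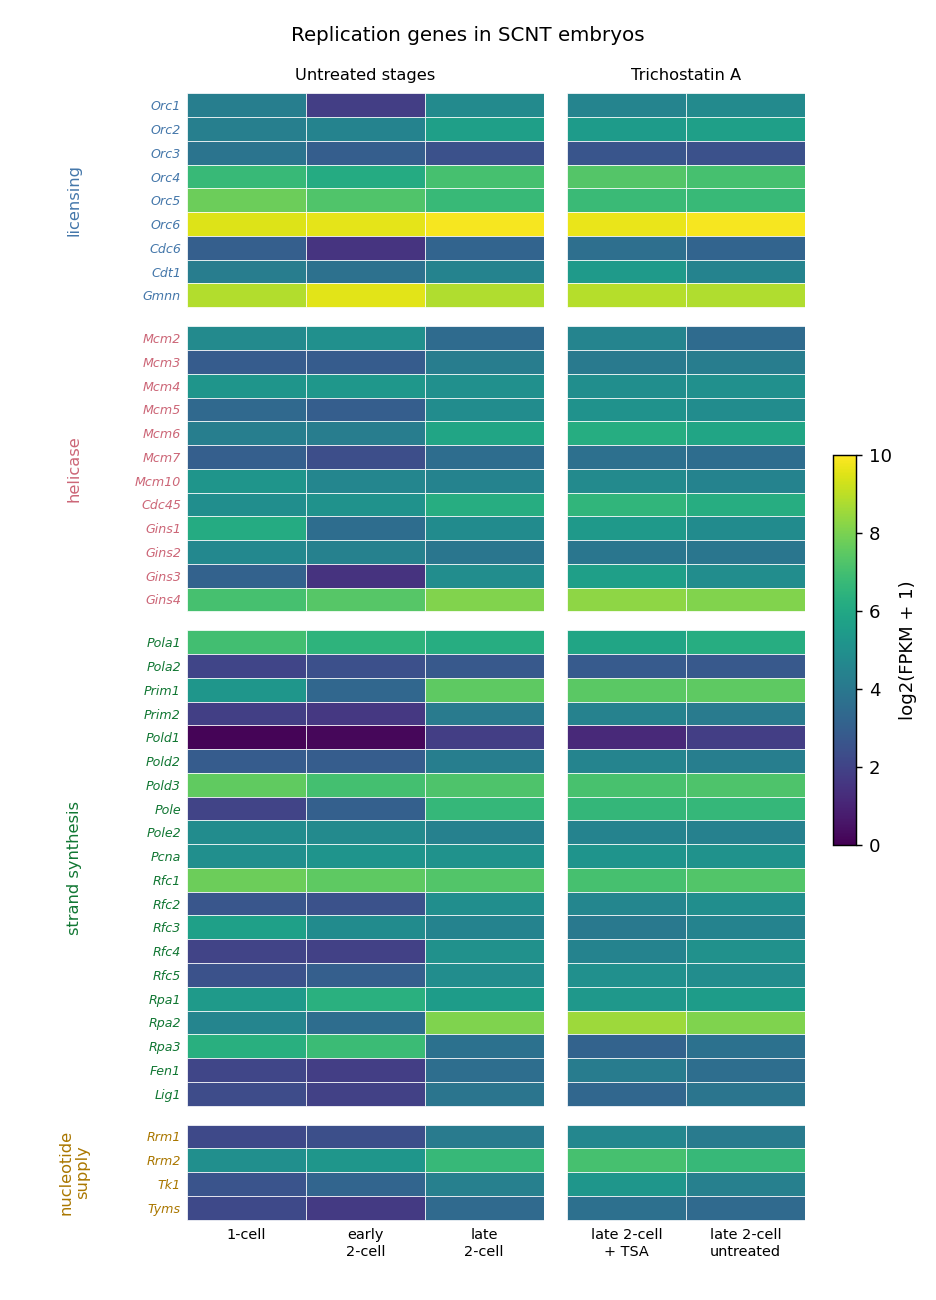
Values of the 45 replication genes as colour on the log2(FPKM + 1) scale, 1 row per gene, ordered by step; the left block holds the 3 untreated stages and the right block late 2-cell embryos with TSA beside untreated ones. Orc6 and Gmnn are among the highest rows in every column and Pold1 the lowest, and many rows are highest at the late 2-cell stage (29 of 45).

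Promoter sequence was not used to choose the genes. Windows of 250 bases before to 50 bases after the annotated start (RefSeq, GRCm38.p6) were matched by symbol for 37 of 45 genes. An E2F-type motif, the binding sequence of the factors known for driving S-phase genes, was searched as TTTGGCGC, TTTCCCGC, TTTGCCGC or TTTCGCGC on either strand. It was found in 15 of the 37 genes (40.5%), against 704 of all 27025 genes with a promoter window (2.61%). Of those genes, 10071 had at least 1 FPKM in any of the 4 columns, and 459 of these had the motif (4.56%). The CCAAT box, searched as CCAAT on either strand, was found in 23 of 37 (62.2%) against 43.7% of the expressed genes, and the CHR element, searched as TTTGAA on either strand, in 5 of 37 (13.5%) against 14.7%. By step the E2F-type motif was in 4 of 8 licensing genes, 5 of 8 helicase genes, 6 of 17 strand synthesis genes and 0 of 4 nucleotide supply genes. Its share was 42.9% both among genes 2-fold higher at the late than the early 2-cell stage (9 of 21) and among those between the limits (6 of 14). A match describes these letters in this window and is not evidence of binding.

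The 250 bases before the start are shown for 5 genes from complexes whose subunits ran in opposite directions between the 2-cell stages. Capitals mark matches of the 3 motifs on either strand. In Mcm6 an E2F-type match at -110 overlaps another on the other strand at -106, and 1 more lies at -47. Mcm2, of the same ring, has no E2F-type match in its window, and Gins3 has 1, at -41. Rpa2 and Rpa3 both have CCAAT matches only.
Mcm6 (chr1:128359706-128359955, minus strand): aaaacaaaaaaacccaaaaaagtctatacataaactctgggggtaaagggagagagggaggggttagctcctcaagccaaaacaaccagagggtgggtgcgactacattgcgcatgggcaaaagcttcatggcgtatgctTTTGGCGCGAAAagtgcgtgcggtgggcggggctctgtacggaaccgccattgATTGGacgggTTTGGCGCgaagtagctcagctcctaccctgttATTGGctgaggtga
Mcm2 (chr6:88898781-88899030, minus strand): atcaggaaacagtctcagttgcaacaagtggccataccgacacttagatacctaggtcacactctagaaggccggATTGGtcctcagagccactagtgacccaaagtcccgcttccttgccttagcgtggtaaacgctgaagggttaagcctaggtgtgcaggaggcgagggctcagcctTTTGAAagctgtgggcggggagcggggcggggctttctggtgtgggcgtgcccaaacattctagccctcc
Gins3 (chr8:95633309-95633558, plus strand): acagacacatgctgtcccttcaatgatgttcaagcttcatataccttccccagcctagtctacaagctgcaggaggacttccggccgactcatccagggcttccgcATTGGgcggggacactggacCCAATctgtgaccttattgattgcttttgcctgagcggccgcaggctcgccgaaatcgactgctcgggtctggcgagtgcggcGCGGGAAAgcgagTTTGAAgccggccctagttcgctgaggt
Rpa2 (chr4:132768110-132768359, plus strand): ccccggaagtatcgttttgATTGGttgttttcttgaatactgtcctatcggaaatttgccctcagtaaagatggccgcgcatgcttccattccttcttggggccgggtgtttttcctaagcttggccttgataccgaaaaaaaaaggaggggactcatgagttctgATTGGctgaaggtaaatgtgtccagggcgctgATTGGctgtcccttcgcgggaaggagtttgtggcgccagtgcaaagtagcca
Rpa3 (chr6:8259142-8259391, minus strand): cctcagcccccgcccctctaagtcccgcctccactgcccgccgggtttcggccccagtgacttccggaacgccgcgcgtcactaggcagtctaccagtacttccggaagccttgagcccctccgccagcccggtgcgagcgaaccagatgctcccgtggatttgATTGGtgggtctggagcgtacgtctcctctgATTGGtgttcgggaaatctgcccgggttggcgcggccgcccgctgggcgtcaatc

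Transcripts across the first cleavage were described by setting early 2-cell against 1-cell embryos. Of the 45 genes, 6 were at least 2-fold lower in early 2-cell embryos (13.3%; the same holds for 5.53% of the 13012 genes kept) and 1 was at least 2-fold higher (2.22%, against 2.89%). Either way, 8.42% of all genes kept were past the limit. The median difference of the list was -0.14, against -0.03 over all genes kept, and 19 of 45 lay above 0. The 6 lower genes were Orc1, Cdc6, Gins1, Gins3, Prim1 and Rpa2, and the higher gene was Pole. The median by step was -0.51 for licensing, -0.17 for the helicase (0.02 after quantile normalization), -0.13 for strand synthesis and 0.26 for nucleotide supply.

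Between the 2-cell stages, the late stage was compared with the early one to describe the transcripts across the main wave of genome activation. In late 2-cell embryos 25 of the 45 genes were at least 2-fold higher (55.6%) and 2 were at least 2-fold lower (4.44%). Over all genes kept the shares were 47.1% higher and 10.8% lower (57.8% past the limit in either direction), so most of this difference was shared by the genes kept. The median was 1.16 for the list and 0.89 for all genes kept. Some genes were kept only through their late 2-cell value. The median of all genes was 0.07 with no filter (24421 genes) and 0.89 with a mean of at least 1 FPKM over the 4 columns. After median-ratio scaling, the median of all genes was 0.13 and that of the list 0.18, with 10 genes higher and 14 lower, and among all genes called the higher share was 54.3%, against 81.4% as deposited. After quantile normalization the list had 8 genes higher and 8 lower, its median was 0.39, and the higher share of all called genes was 50.1%. The direction of the 25 higher genes was the same under both scalings. Of these, 8 (Orc1, Gins3, Prim1, Prim2, Pole, Rfc2, Rfc4 and Rpa2) remained 2-fold higher under both, and both lower genes, Mcm2 and Rpa3, remained 2-fold lower. Orc3, Mcm4, Gins2, Pole2, Rfc3 and Rpa1, inside the limit as deposited, were 2-fold lower under both scalings. The late 2-cell column was the highest of the 3 untreated stages for 29 of 45 genes (64.4%), against 65.0% of all genes kept. The comparisons of the stages share the early 2-cell column, so a low value there enters both.

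**Figure D2:**
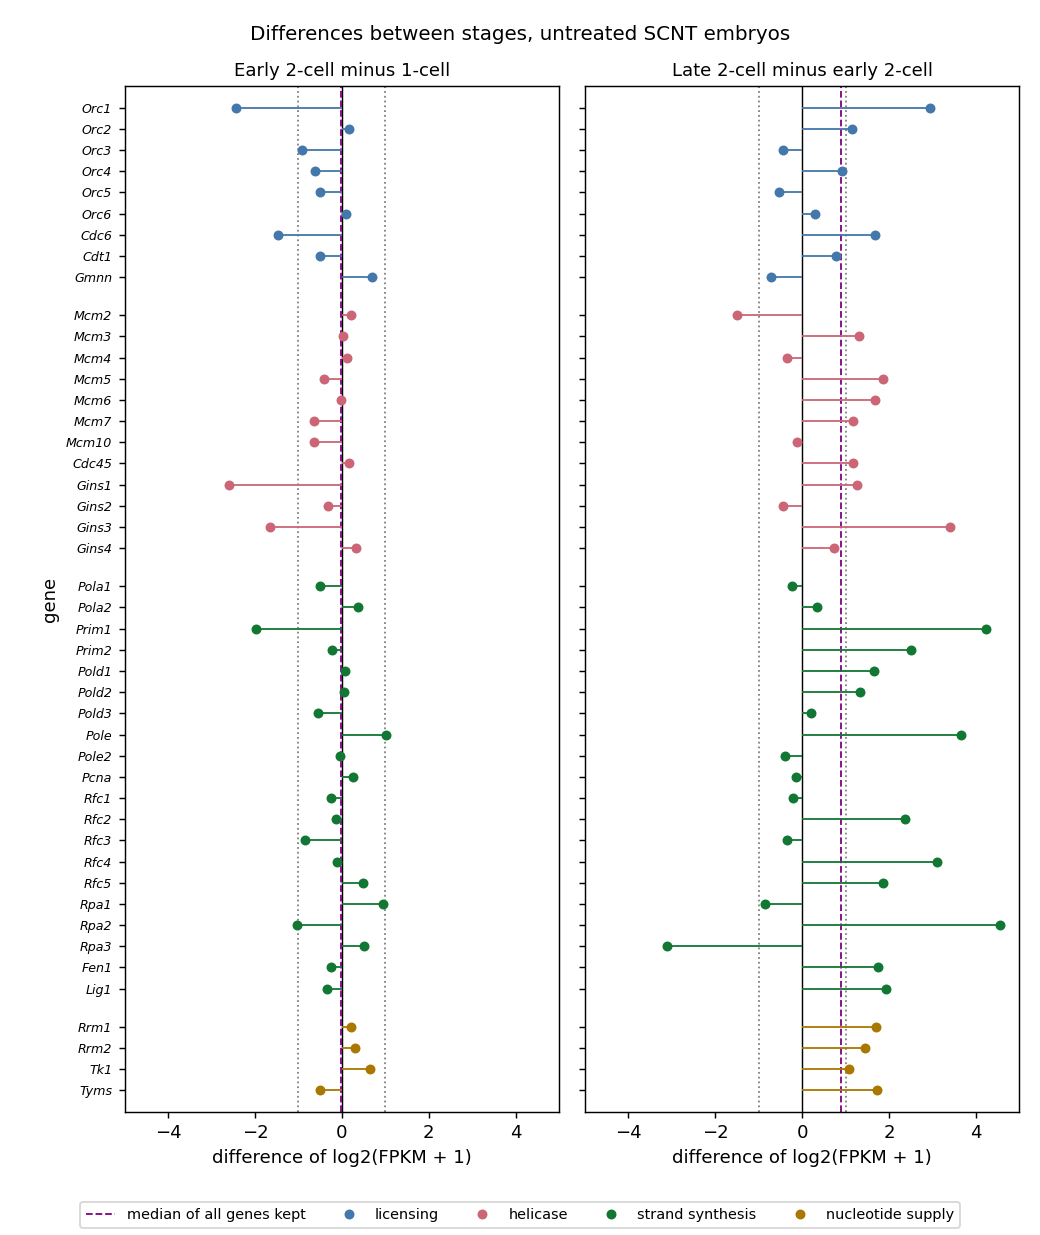
Differences of log2(FPKM + 1) for each gene, early 2-cell minus 1-cell on the left and late 2-cell minus early 2-cell on the right; dotted lines mark 2-fold and the dashed line the median of all genes kept (-0.03 and 0.89). On the right most points lie above 0 (31 of 45), with Rpa2 and Prim1 farthest right and Rpa3 and Mcm2 farthest left.

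Within licensing, the origin recognition complex was uneven in its values. Orc1, its largest subunit and the one with an active ATPase site, was at 18.0 FPKM in 1-cell, 2.50 FPKM in early 2-cell and 25.9 FPKM in late 2-cell embryos. The difference was -2.45 for early 2-cell against 1-cell and 2.94 for late against early 2-cell. Orc1 was thus the lowest subunit of the complex at the early 2-cell stage and at no other, where Orc3 was the lowest. Its gene (chromosome 4 from 108575705 to 108616030, GRCm38.p6) overlaps Prpf38a, which was at 61.2, 42.6 and 70.8 FPKM at the same stages. Orc2 was at 18.5, 21.0 and 47.7 FPKM in 1-cell, early 2-cell and late 2-cell embryos, a difference of 1.15 between the 2-cell stages. Orc6, which is less tightly held in the complex, was at 712, 760 and 935 FPKM in the same order, and its late minus early difference of 0.30 was -0.71 after median-ratio scaling. Orc5 was at 215, 152 and 105 FPKM and Orc3 at 13.5, 6.62 and 4.63 FPKM, with differences between the 2-cell stages below 0 as deposited and after both other scalings. Orc4 was at 107, 68.7 and 130 FPKM, a difference of 0.91 between the 2-cell stages that was below 0 after median-ratio scaling. The ratio of the highest to the lowest subunit was 52.8 in 1-cell, 304 in early 2-cell and 202 in late 2-cell embryos. Median-ratio scaling cannot change this ratio, but quantile normalization can.

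Of the loading factors, Cdc6, an ATPase that brings MCM to the origin, was at 6.87 FPKM in 1-cell, 1.86 FPKM in early 2-cell and 8.19 FPKM in late 2-cell embryos. Cdt1 was at 17.5, 12.03 and 21.4 FPKM at the same stages and stayed within the 2-fold limits. Its late minus early difference of 0.78 was below 0 after both other scalings. Geminin, the inhibitor of Cdt1, was at 459, 745 and 453 FPKM, so that as deposited it was highest when Orc1, Cdc6 and Cdt1 were lowest. For Cdt1 this did not hold after either other scaling, where its late 2-cell value was below its early 2-cell value. The ratio of geminin to Cdt1 was 26.2 in 1-cell, 61.9 in early 2-cell and 21.2 in late 2-cell embryos. Of 8 related genes for the turnover of Cdt1 and geminin, 2 were at least 2-fold lower in early 2-cell than 1-cell embryos and 0 higher. They were Fbxo5, an inhibitor of the anaphase-promoting complex that degrades geminin, at 14.0 against 78.6 FPKM, and Dtl, which targets Cdt1 for destruction, at 11.6 against 27.4 FPKM. Over all genes kept 5.53% were lower and 2.89% higher, and after quantile normalization 1 of the 8 was lower. In late against early 2-cell embryos 4 of the 8 were higher (Fbxo5, Skp2, Cul4a and Cdc20) and 1 lower (Cul4b), against 47.1% and 10.8% of all genes kept. Fbxo5 was at 113 against 14.0 FPKM. After either other scaling 1 of the 8 was higher and 2 were lower.

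In the helicase, the 6 MCM subunits form a ring with 1 copy of each, and their mRNA levels did not move together. Mcm3, Mcm5, Mcm6 and Mcm7 were at least 2-fold higher in late than in early 2-cell embryos, whereas Mcm2 was lower and Mcm4 was within the limits. After either other scaling Mcm4 was also at least 2-fold lower and Mcm3, Mcm5, Mcm6 and Mcm7 were inside the limit, still above 0. Mcm6 (chromosome 1 from 128331575 to 128359705) was at 17.8 FPKM in 1-cell, 17.5 FPKM in early 2-cell and 58.2 FPKM in late 2-cell embryos, and Mcm5 was at 9.42, 6.82 and 27.4 FPKM. Mcm3 was at 6.24, 6.31 and 17.2 FPKM and Mcm7 at 7.03, 4.15 and 10.5 FPKM. Mcm7 contains the gene of Mir25 and overlaps Ap4m1, which was at 0.45, 0.12 and 24.8 FPKM, and the sources used here do not say how reads of overlapping genes were assigned. Mcm2 (chromosome 6 from 88883474 to 88898780) was at 26.2, 30.3 and 10.1 FPKM, a difference of -1.50 between the 2-cell stages, and Mcm4 at 35.7, 38.7 and 30.3 FPKM. Mcm2 ranked second of the 6 subunits in 1-cell and early 2-cell embryos and last in late 2-cell embryos. The ratio of Mcm6 to Mcm2, whose promoters are shown above, was 0.68 in 1-cell, 0.58 in early 2-cell and 5.78 in late 2-cell embryos.

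Of the factors that activate the ring, Cdc45 was at 28.9, 32.5 and 74.1 FPKM in 1-cell, early 2-cell and late 2-cell embryos, a difference of 1.17 between the 2-cell stages. Mcm10, which binds the helicase as it is activated, was at 36.3, 22.9 and 21.2 FPKM. GINS also has 1 copy of each of 4 subunits. Gins3 (chromosome 8 from 95633559 to 95645059) was at 7.71, 1.77 and 28.4 FPKM at these stages, and its difference of 3.41 between the 2-cell stages was the largest of the helicase genes. Gins1 was at 68.9, 10.5 and 26.8 FPKM, so that its late 2-cell value was below its 1-cell value. Gins4 was the highest of the 4 in every column, at 133, 166 and 278 FPKM, with a late minus early difference of 0.74 that was below 0 after median-ratio scaling. Gins2 was at 24.5, 19.5 and 14.2 FPKM. The ratio of Gins3 to Gins2 was 0.31 in 1-cell, 0.090 in early 2-cell and 1.99 in late 2-cell embryos.

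**Figure D3:**
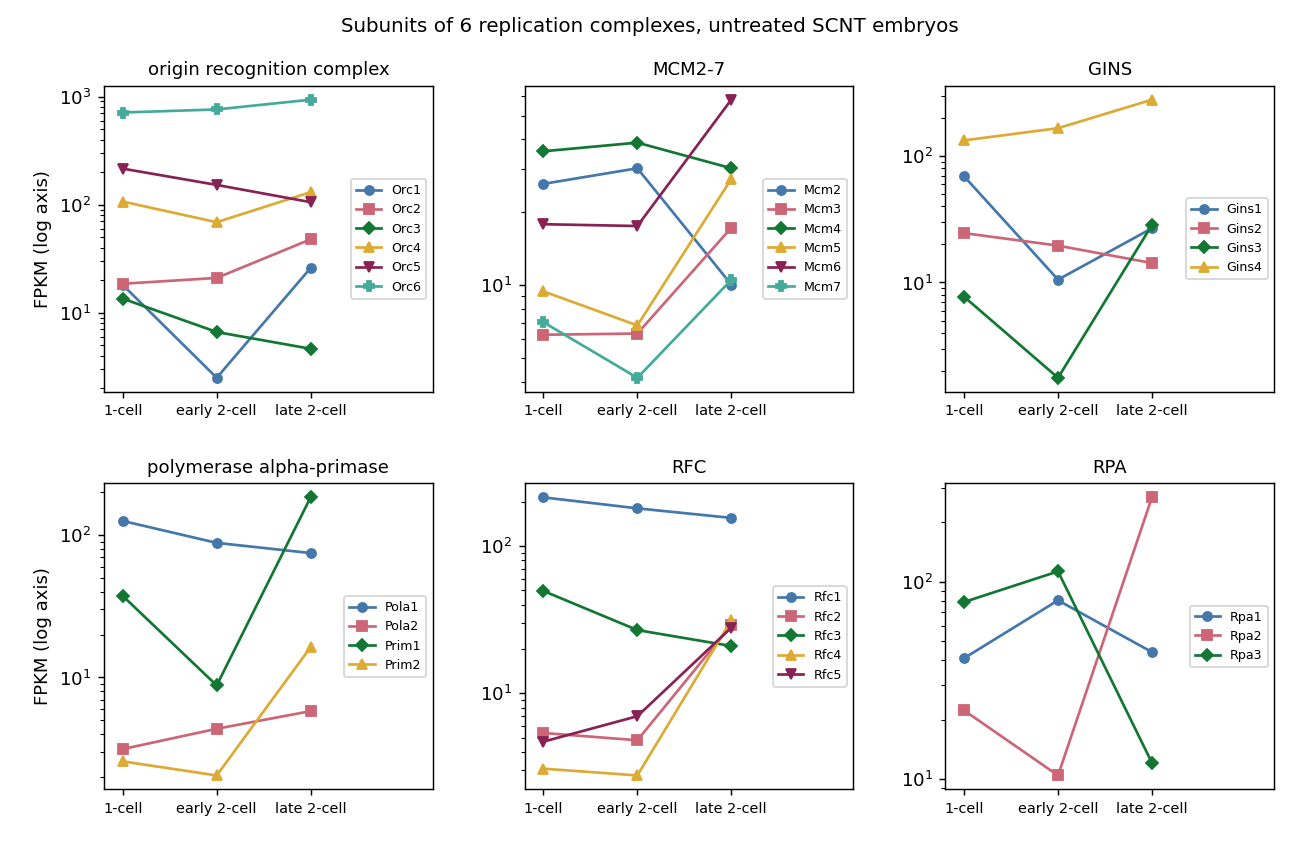
FPKM of the subunits of 6 complexes in untreated 1-cell, early 2-cell and late 2-cell embryos, 1 line per subunit, on logarithmic axes that differ between panels. Lines cross between the early and late 2-cell stages in each of the complexes: Rpa2 lies below Rpa3 at the early 2-cell stage (10.5 and 113 FPKM) and above it at the late 2-cell stage (268 and 12.1 FPKM).

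Strand synthesis held the highest and the lowest difference of the list between late and early 2-cell embryos. In the polymerase alpha-primase complex, Prim1, the catalytic subunit of primase, was at 37.3 FPKM in 1-cell, 8.79 FPKM in early 2-cell and 184 FPKM in late 2-cell embryos. Its differences were -1.97 for early 2-cell against 1-cell and 4.24 for late against early 2-cell. Prim2, the large primase subunit, was at 2.58, 2.05 and 16.3 FPKM. Pola1, the catalytic subunit of polymerase alpha, was at 125, 88.0 and 74.7 FPKM, and Pola2, its accessory subunit, was at 3.14, 4.36 and 5.80 FPKM, with a late minus early difference of 0.34 that was below 0 after both other scalings. Pola1 was 10.0 times Prim1 in early 2-cell embryos and 0.41 times Prim1 in late 2-cell embryos.

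Of the polymerases that extend the primers, the catalytic subunits Pole and Pold1 had their lowest values at the 1-cell stage and their highest at the late 2-cell stage. Pole, the catalytic subunit of polymerase epsilon (chromosome 5 from 110286319 to 110337468), was at 3.01, 7.05 and 99.97 FPKM in 1-cell, early 2-cell and late 2-cell embryos. Its difference of 1.01 between early 2-cell and 1-cell embryos lay just past the limit, and it was 0.59 with a pseudocount of 5. Rpa1, just inside the limit in that comparison at 0.96, was past it after both other scalings. Pole2, the second subunit of polymerase epsilon, was at 27.0, 26.2 and 19.6 FPKM, so that Pole2 was 3.71 times Pole in early 2-cell embryos and 0.20 times Pole in late 2-cell embryos. Pold1 was at 0.072, 0.12 and 2.52 FPKM, the lowest gene of the list at each stage. Pold1 was kept only through its late 2-cell value, so the filter set the direction of its difference of 1.65. The other polymerase delta subunits on the list were higher, with Pold2 at 6.29, 6.53 and 17.9 FPKM and Pold3 at 189, 129 and 148 FPKM. Pold4, a further subunit taken with the fork accessory factors, was at 0.71, 0.79 and 0.996 FPKM, below Pold1 at the late 2-cell stage. The late minus early difference of Pold3 was 0.20, and it was below 0 after both other scalings.

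The clamp, Pcna, was at 29.5, 35.5 and 32.3 FPKM in 1-cell, early 2-cell and late 2-cell embryos, and its differences were 0.26 for early 2-cell against 1-cell and -0.13 for late against early 2-cell, the second of which was past 2-fold lower after median-ratio scaling. In RFC, the loader of the clamp, Rfc2, Rfc4 and Rfc5 were at least 2-fold higher at the late than at the early 2-cell stage. Rfc4 was at 3.08, 2.77 and 31.3 FPKM, Rfc2 at 5.38, 4.81 and 29.0 FPKM, and Rfc5 at 4.70, 7.00 and 27.9 FPKM. Rfc4 overlaps Eif4a2, which was at 65.1, 55.1 and 101 FPKM. Rfc1, the large subunit, was at 214, 180 and 155 FPKM, and Rfc3 at 49.5, 26.9 and 21.0 FPKM. The highest RFC subunit exceeded the lowest 69.4-fold in 1-cell and 65.0-fold in early 2-cell embryos and 7.40-fold in late 2-cell embryos, so that the 4 small subunits lay between 21.0 and 31.3 FPKM at the last of these stages.

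RPA, the trimer that coats single-stranded DNA, held both ends of the list. Rpa2, the middle subunit (chromosome 4 from 132768360 to 132778746), was at 22.3 FPKM in 1-cell, 10.5 FPKM in early 2-cell and 268 FPKM in late 2-cell embryos, and its difference of 4.55 between the 2-cell stages was the highest of the 45 genes. Rpa3, the small subunit (chromosome 6 from 8255936 to 8259141), was at 79.0, 113 and 12.1 FPKM, and its difference of -3.12 was the lowest. Rpa1, the large subunit with most of the DNA contacts, was at 41.1, 80.6 and 44.1 FPKM. Rpa2 was 0.28 times Rpa3 in 1-cell, 0.093 times in early 2-cell and 22.0 times in late 2-cell embryos. After median-ratio scaling the differences between the 2-cell stages were 3.58 for Rpa2 and -4.07 for Rpa3. The early 2-cell minus 1-cell difference of Rpa2 (-1.02) was under the 2-fold limit after either other scaling, at -0.95 and -0.75. Of the enzymes that finish the lagging strand, the flap nuclease Fen1 was at 3.23, 2.53 and 10.8 FPKM and the ligase Lig1 at 3.85, 2.84 and 13.7 FPKM in 1-cell, early 2-cell and late 2-cell embryos.

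In nucleotide supply, 4 of 4 genes were at least 2-fold higher in late than in early 2-cell embryos (47.1% of all genes kept were), and 0 of 4 were past the limit between early 2-cell and 1-cell embryos. After both other scalings 0 of the 4 remained 2-fold higher, and their median was 0.64 under each. Rrm2, the regulated small subunit of ribonucleotide reductase, was at 29.7, 36.7 and 102 FPKM in 1-cell, early 2-cell and late 2-cell embryos, and Rrm1, its large subunit, was at 3.59, 4.35 and 16.4 FPKM. Tk1, which salvages thymidine, was at 4.98, 8.33 and 18.7 FPKM. Tk1 overlaps Afmid, which was at 1.07, 1.41 and 3.99 FPKM. Tyms, which makes thymidylate anew, was at 3.60, 2.23 and 9.75 FPKM. Of 18 other genes of nucleotide synthesis, 12 were at least 2-fold higher in late than in early 2-cell embryos and 0 lower, with a median of 1.75. Among them Impdh2, of guanine nucleotide synthesis, was at 67.0 against 1.43 FPKM, Ppat, the first enzyme of purine synthesis, at 84.1 against 3.01 FPKM, and Gart, of purine synthesis, at 15.4 against 0.92 FPKM. Over all genes kept 47.1% were higher, and the list had 8 higher and 2 lower genes after median-ratio scaling and 10 higher and 0 lower after quantile normalization.

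Other genes of the pathway were taken from 5 lists by function. Of 11 genes of origin firing, 6 were at least 2-fold higher in late than in early 2-cell embryos (54.5%, against 47.1% of all genes kept) and 0 lower, with a median of 1.03 against 0.89. After median-ratio scaling 3 were higher, and after quantile normalization 2. Ccne1, cyclin E1, differed most, at 324 against 5.14 FPKM, and Cdk2, its kinase, was at 26.9 against 4.60 FPKM. Of 21 measured fork accessory factors, 11 were higher (52.4%, against 47.1%) and 3 lower (14.3%, against 10.8%) in that comparison, with a median of 1.15. After either other scaling 7 were higher. Rnaseh2a, which removes RNA from DNA, was at 50.2 against 4.33 FPKM, and Dscc1, of an alternative clamp loader, was at 26.6 against 2.40 FPKM. Mcmbp, which binds MCM subunits outside the ring, was lower, at 64.1 against 491 FPKM. Of 14 measured E2F and RB genes, 4 were higher (28.6%, against 47.1%) and 1 lower, with a median of 0.70, against 0.89 over all genes. That median was -0.23 after median-ratio scaling and -0.25 after quantile normalization. E2f7, a repressor of the family, was at 5.75 FPKM in late 2-cell and 0.096 FPKM in early 2-cell embryos, E2f8, another repressor, was at 12.3 and 1.55 FPKM, and E2f5 was lower, at 67.8 and 304 FPKM. In early 2-cell against 1-cell embryos 1 of these 14 was 2-fold higher, Rbl2, at 1.86 against 0.27 FPKM. In that comparison 0 of 11 firing genes were past the limit, 1 of 21 fork factors was lower (Rnaseh2b), and of 18 nucleotide synthesis genes 1 was higher (Dck) and 1 lower (Gmps). Over all genes kept 2.89% were higher and 5.53% lower between these stages.

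TSA-treated late 2-cell embryos were compared with untreated ones to describe replication transcripts in embryos exposed to a histone deacetylase inhibitor. With TSA, 1 of 45 genes was at least 2-fold higher (2.22%, against 2.51% of the 12756 genes kept) and 0 were at least 2-fold lower (4.08% of all genes were). In either direction 6.59% of all genes were past the limit. The median of the list was 0.13, against -0.08 over all genes, and 27 of 45 genes lay above 0 (60.0%, against 43.3% of all genes). These 27 lay above 0 as deposited and after both other scalings, and 12 lay below 0 in all of these. Higher genes were 38.1% of all genes called as deposited, 61.2% after median-ratio scaling and 53.8% after quantile normalization.

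The gene past the limit was Mcm2. It was at 21.9 FPKM in TSA-treated and 10.1 FPKM in untreated late 2-cell embryos, a difference of 1.05. Its value with TSA lay below those of untreated early 2-cell (30.3 FPKM) and 1-cell embryos (26.2 FPKM). Just inside the limit were Tk1 (0.96), at 37.5 FPKM with TSA and 18.7 FPKM without, and Cdt1 (0.94), at 42.0 FPKM with TSA and 21.4 FPKM without. Both were past it after median-ratio scaling (1.09 and 1.07) and after quantile normalization (1.11 and 1.08). The value of Mcm2 was 0.84 with a pseudocount of 5, so that 0 of 45 genes were 2-fold apart at that setting. The ratio of geminin to Cdt1 was 11.1 with TSA and 21.2 without, with geminin itself at 467 FPKM with TSA and 453 FPKM without.

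By step, nucleotide supply and the helicase had the highest medians with TSA. All 4 nucleotide supply genes lay above 0, with a median of 0.44. Rrm1 had 23.9 FPKM with TSA, against 16.4 FPKM untreated, Rrm2 had 132 and 102 FPKM, and Tyms had 11.5 and 9.75 FPKM. Of the 12 helicase genes 9 lay above 0, with a median of 0.25. Gins3 had 48.3 FPKM with TSA, against 28.4 FPKM untreated, Gins1 had 39.9 and 26.8 FPKM, and Cdc45 had 93.3 and 74.1 FPKM. Gins2 was at 14.2 FPKM in both. The ratio of Mcm6 to Mcm2 was 3.28 with TSA and 5.78 without.

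Licensing genes had a median of 0.05 with TSA, with 6 of 9 above 0. Cdc6 had 11.2 FPKM with TSA, against 8.19 FPKM untreated, and Orc4 had 159 and 130 FPKM, while Orc1 was at 21.6 and 25.9 FPKM and Orc6 at 802 and 935 FPKM. Strand synthesis genes had a median of -0.11, with 8 of 20 above 0, and this median was 0.04 after median-ratio scaling. The lowest differences were those of Pold1 (1.25 FPKM with TSA and 2.52 FPKM without), Lig1 (8.76 and 13.7 FPKM), Rpa3 (7.92 and 12.1 FPKM) and Rfc4 (21.3 and 31.3 FPKM). The highest were those of Fen1 (16.7 and 10.8 FPKM) and Rpa2 (373 and 268 FPKM). Of the 5 RFC subunits 4 lay below 0, and only Rfc5 was higher, at 30.8 FPKM with TSA and 27.9 FPKM without. Rpa2 was 47.1 times Rpa3 with TSA and 22.0 times without.

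**Figure D4:**
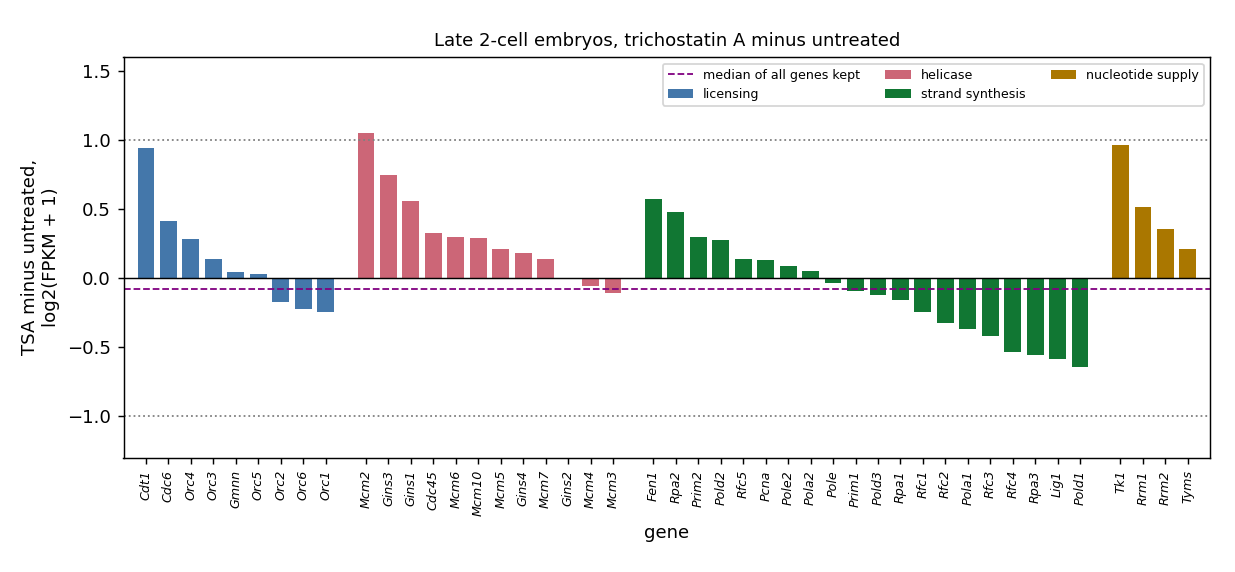
Difference of log2(FPKM + 1), TSA-treated minus untreated late 2-cell embryos, 1 bar per gene, grouped by step and sorted within it; dotted lines mark 2-fold and the dashed line the median of all genes kept (-0.08). Mcm2 alone passes a dotted line as deposited, and bars of nucleotide supply all lie above 0.

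The TSA values were also set beside all 3 untreated stages. For 20 of 45 genes the value with TSA lay above each of the untreated columns, for 7 it lay below each of them, and for 18 it lay within their range. These places were not counted over all genes, so the counts cannot be read as particular to replication genes. As deposited, the 20 included 4 of 4 nucleotide supply genes, both loading factors, Mcm5, Mcm6 and Mcm7, Gins3 and Gins4. Median-ratio scaling divides the late 2-cell columns by 1.33 with TSA and 1.47 without. It divides the early 2-cell column by 0.73 and the 1-cell column by 0.78. Places were not counted again after it, and some change: Cdc6 and Mcm7 with TSA then lie below their 1-cell values. The 7 below were Mcm4, Gins2, Pola1, Rfc1, Rfc3, Rpa1 and Rpa3, each of which was also lower in late than in early untreated 2-cell embryos. Both statements use the untreated late 2-cell column, so they are not independent. These places are those of the deposited values with no tolerance: Gins2 was at 14.24 FPKM both with TSA and without, and its difference was above 0 after both other scalings, as was that of Mcm4 after median-ratio scaling.

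Related genes past the limit with TSA were few, and the median differences were 0.06 for firing, -0.01 for fork factors, 0.26 for turnover, -0.06 for other nucleotide synthesis and -0.20 for E2F and RB genes. Over all genes kept 2.51% were higher and 4.08% lower with TSA, and the median was -0.08. Of 11 firing genes, 1 was at least 2-fold lower and 0 higher. It was Dbf4, the activating subunit of the Cdc7 kinase, at 192 FPKM with TSA and 445 FPKM without, while Cdc7 itself had 16.8 and 15.6 FPKM. Of 21 fork factors, Rnaseh2c was higher, at 7.55 FPKM with TSA and 2.16 FPKM without, and Chtf8 lower, at 1.05 and 4.12 FPKM. Of 18 other nucleotide synthesis genes 2 were lower, the reductase subunit Rrm2b at 77.6 FPKM with TSA and 170 FPKM without, and Dctpp1, which clears dCTP, at 20.2 and 44.6 FPKM, and both were inside the limit after median-ratio scaling. Of 14 E2F and RB genes 3 lay above 0, against 43.3% of all genes, and 4 after median-ratio scaling. E2f8 was 2-fold lower, at 5.60 FPKM with TSA and 12.3 FPKM without, and was inside the limit after both other scalings. Of 8 turnover genes Cdc20 was 2-fold higher, at 589 FPKM with TSA and 267 FPKM without.

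**Figure D5:**
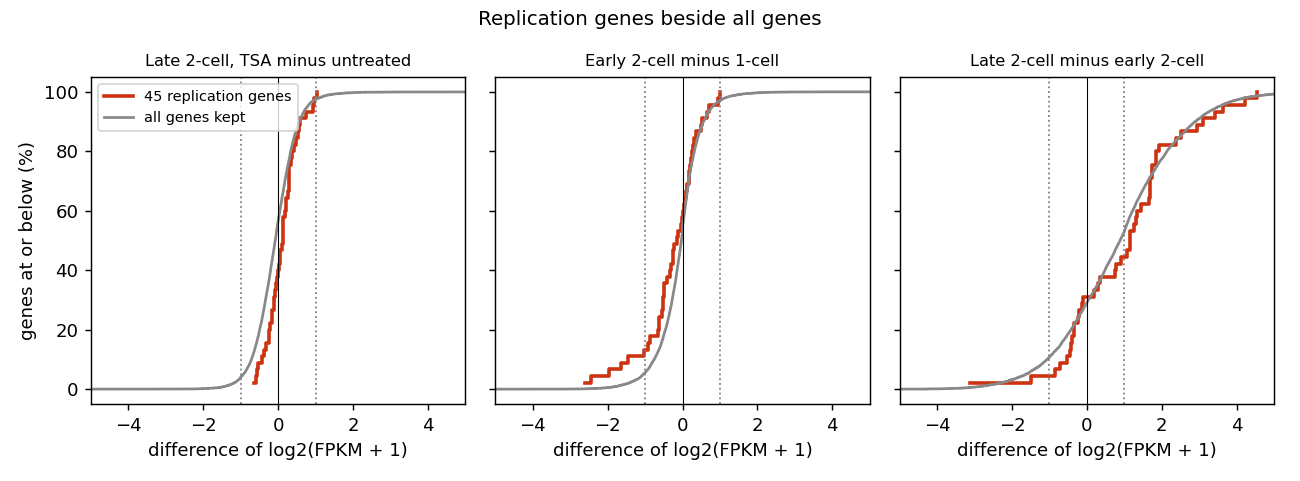
Cumulative share of genes by difference of log2(FPKM + 1) in the 3 comparisons, for the 45 replication genes (red) and all genes kept (grey); dotted lines mark 2-fold. With TSA the red line lies to the right of the grey one around 0 (medians 0.13 and -0.08), and between the 2-cell stages both lie mostly above 0 (medians 1.16 and 0.89).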

How the data were processed

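RNA of SCNT embryos was measured by sequencing in 24 of the 59 samples in the labels, and the other 35 are chromatin libraries and inputs that were not analysed here. The authors deposited log2 values, log2(FPKM + 1) per the file headers, with 6 columns of values. Of these, 4 matched groups of RNA libraries and 2 matched none and were not used. The submitters' processing notes name Cufflinks, StringTie 1.3.4, deepTools 2.5.7, Bowtie2 2.3.4.3, HISAT2 2.1.0, SAMtools 1.7 and the build mm10, with no roles. The sources used here do not give the annotation, the strand setting or how libraries were merged. Sequencing depth is unknown from these values.

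Differences of log2(FPKM + 1) were taken for genes with at least 1 FPKM in a column of the comparison (any of the 3 untreated columns for stages) and counted from 1 with numpy 2.4.6 and pandas 2.3.3. The calculation was tested by putting known differences, without noise, into the deposited values, which checks the arithmetic only. With 1 column per group no test could be fitted, and limma was not run. Members, steps, related lists, markers and naming rules were chosen with earlier results of these data known. Values at the 3 untreated stages were given for every gene of the list, and values with TSA in the text for some of them. Related genes were named when 2-fold apart, largest first, up to 6 per list and comparison. Of the list, 13 genes overlap another gene that has expression values. Of the overlapping genes, values are given for Prpf38a, Ap4m1, Eif4a2 and Afmid, chosen after values were seen. Each of these overlaps a list gene that was higher at the late than the early 2-cell stage. Cdc7, Pold4, the markers named singly and the pairs of subunits in ratios were chosen after values were seen. Alternatives were pseudocounts of 0.1 and 5, median-ratio scaling, quantile normalization, no filter, a mean of at least 1 FPKM over the 4 columns, and at least 5 FPKM. All 45 genes matched RefSeq (GRCm38.p6).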

Additional observations from a re-analysis of the deposited data

How the results depend on the processing

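No paired analysis was possible because the table holds 1 column per group, and for the same reason no replicate could be left out. With no replicate spread, a median was read as moved when it changed by over 1.5 times or changed sign.

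With TSA, the list's median was 0.082 with a pseudocount of 5 and 0.25 after median-ratio scaling. Genes of the list at least 2-fold higher numbered 1 as deposited, 0 with a pseudocount of 5, and 3 after median-ratio scaling and 3 after quantile normalization. Over all genes, 320 higher and 520 lower as deposited became 614 and 1074 with a pseudocount of 0.1, 89 and 92 with 5, and 179 and 280 with at least 5 FPKM, where fewer genes are tested, while the lower genes numbered 233 after median-ratio scaling and 298 after quantile normalization.

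For early 2-cell against 1-cell embryos, the list's median was -0.083 with a pseudocount of 5, -0.064 after median-ratio scaling and -0.041 after quantile normalization. With a pseudocount of 5 the list had 0 higher and 3 lower genes, against 1 and 6, and 2 were higher after median-ratio scaling and 2 after quantile normalization. Over all genes, 376 higher and 720 lower became 1161 and 1470 with a pseudocount of 0.1 and 90 and 334 with 5. Higher genes were 34.3% of those called, and 47.7% after quantile normalization.

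For late against early 2-cell embryos, the list's median of 1.16 was 0.18 after median-ratio scaling and 0.39 after quantile normalization, with 10 higher and 14 lower, and 8 higher and 8 lower, in place of 25 and 2. All genes, 6128 higher and 1399 lower, became 3556 and 847 with a pseudocount of 5, 3758 and 3157 after median-ratio scaling, and 3378 and 3365 after quantile normalization.

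Pseudocounts act on low values and scalings on whole columns by construction. No filter and a mean of at least 1 FPKM moved none of these values by over 1.5 times. Among the 45 genes' differences in the 3 comparisons, 0 that were called changed sign in any setting; calls were lost for 16 after median-ratio scaling, 18 after quantile normalization and 11 with a pseudocount of 5, and 15 and 9 were gained after the scalings. Scalings of the related lists were added after the data were seen; their values stand beside those lists, and 2 turnover genes lower in early 2-cell than 1-cell embryos were 1 after quantile normalization. Depth cannot be read from the table.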
